A study of Mus musculus with 24 samples.

Results

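Spinal cord neurosphere cells that had lost EGF and FGF2 and then received them again were compared with cells that had never been without them. The comparison took in 8 of the 24 arrays of the series, 4 of returned cells (the dedifferentiation condition of the sample labels) and 4 of growing cells, and all 22180 genes named on the array. Growing cells were spheres kept with EGF, FGF2 and heparin. Withdrawn cells were dissociated, plated on coverslips coated with poly-D-lysine and laminin, and held for 3 days in 2% fetal bovine serum without the factors. Returned cells went through those 3 days and then had EGF, FGF2 and heparin for 3 days once the serum was removed. The 3 conditions each had 1 array from each of 4 mice, whose cultures were derived separately from the spinal cords of adult CD1 mice, an outbred stock with no engineered allele named in the sources used here. The 4 withdrawn arrays were used to tell where a gene had stood before the factors came back. Plating on a coated surface, dissociation, past serum and added days in culture separate returned from growing cells as well, and these cannot be told apart from the withdrawal itself. That returned cells stayed on the coated surface once the factors were back is implied by the labels and not stated.

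EGF and FGF2 bind receptor tyrosine kinases and act largely through the RAS and ERK kinase cascade, which drives the cell cycle and holds neural progenitors in an immature state. When both factors are taken away, neural progenitors in culture generally leave the cycle and mature, mostly toward astrocytes. Serum and a stiff coated surface act on other machinery, namely the actin-sensing factors SRF and MRTF and the co-activator YAP, whose targets encode contractile, adhesive and matrix proteins. Osmr encodes the receptor of oncostatin M, a cytokine of the interleukin-6 family that pushes neural progenitors toward astrocytes through STAT3.

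The arrays carried the markers of the labelled cells. Of 8 progenitor markers 0 lay under the array median in any condition, while the few defining markers of microglia, endothelium, fibroblasts, Schwann cells and mature oligodendrocytes lay near it in growing and returned cells. Pericyte and smooth muscle markers had a summed linear signal of 145 to 225 in growing, 908 to 1430 in withdrawn and 621 to 896 in returned cells, carried by Acta2, and their part in the results was not tested. Of a wider list of 20 fibroblast and meninges genes 5 were higher in returned than growing cells (25%) and 1 lower (5%), as described with the matrix genes. In these bulk arrays, more RNA per cell and more cells of a kind cannot be told apart. Values below are deposited RMA signals on the log2 scale, where 1 unit is a 2-fold step and a lower quartile of each array lay at 3.04 to 3.14. A gene was called when limma's moderated test gave a Benjamini-Hochberg adjusted p under 0.05.

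Returned cells lay between growing and withdrawn cells on the first axis of a principal component analysis and apart from most of both on the second. On the first axis, which held 45.9% of the variance, growing arrays lay at -58.51 to -48.71, returned arrays at -21.11 to 1.941 and withdrawn arrays at 56.42 to 61.83. On the second, with 14% of the variance, returned arrays lay at -47.07 to -11.72, growing arrays at 3.128 to 32.6 and withdrawn arrays at -12.23 to 36.55. After the factors came back, 1744 genes (7.86%) were still or newly higher than in growing cells and 1647 (7.43%) were lower, 3391 in all (15.3%). The counts in gene lists given further on are to be read against these shares. The 4 returned and 4 growing arrays did not overlap for 4954 genes (22.3%). With the 2-fold and unadjusted p thresholds of the study's methods, 565 genes (2.55%) were higher and 223 (1.01%) lower. Withdrawal itself had called 6271 genes (28.3%), 2681 higher and 3590 lower than growing, and 3702 (16.7%) were called between returned and withdrawn cells, 2246 (10.1%) higher and 1456 (6.56%) lower in the returned.

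Each gene was placed by its 2 differences from growing, before and after the return. Of the genes called, 2645 (11.9% of all genes) had been called on withdrawal in the same direction and had thus not come back. A further 62 (0.28%) had crossed to the other side of the growing level, called passed here, and 684 (3.08%) differed from growing after the return alone. Another 1895 genes (8.54%) had been called on withdrawal, were called on return and no longer differed from growing within the test, which does not show that they were equal. Both differences use the same growing arrays, so an unusual growing array enters both.

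Among the genes that had not come back, 1608 were not called between withdrawn and returned cells, 954 had come part of the way and 83 had moved further away, 73 of them upward. Genes are described here also by how far withdrawal had moved them. Of 1900 genes moved at least 2-fold by withdrawal, 1251 (65.8%) had not come back. Of 499 genes moved at least 4-fold, 416 (83.4%) had not. Over all 6271 genes called on withdrawal the share was 42.2%. The median part of the distance left was 47.2% over all of these, 44.0% from 2-fold and 41.1% from 4-fold. The rising share of calls thus does not by itself show that larger movers recovered less. All genes raised kept a median 50.3% and all genes lowered 45.0%. Genes raised at least 4-fold kept a median 56.2% of the distance on the log2 scale, against 31.4% for genes lowered as much. This difference was not tested.

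**Figure D1:**
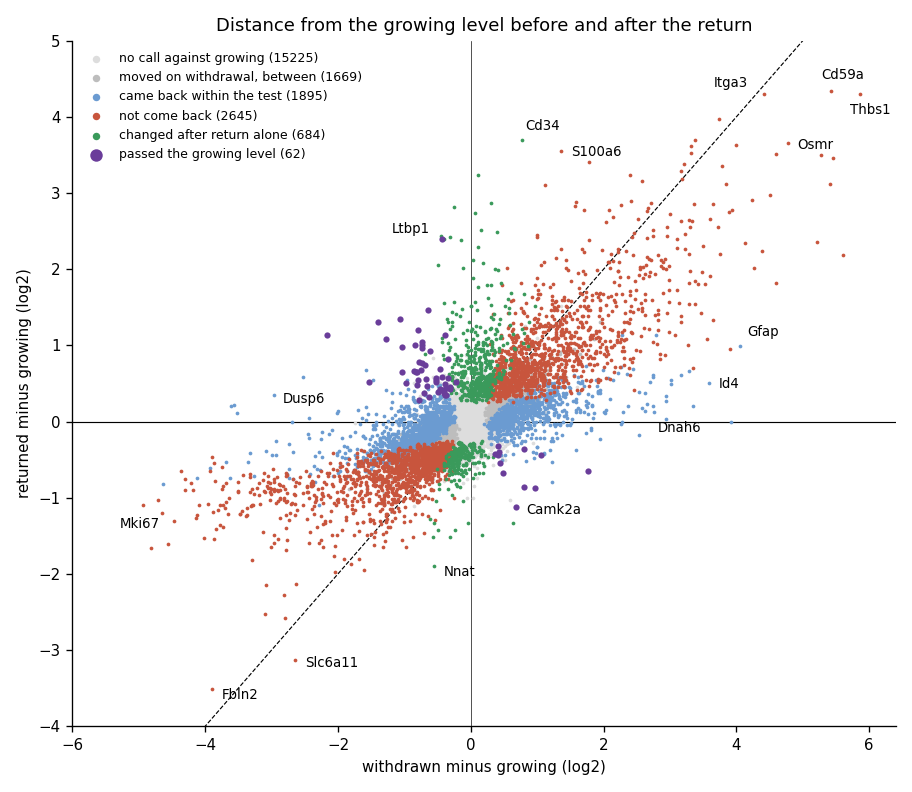
Difference from growing cells on the log2 scale before the return (withdrawn minus growing, horizontal axis) and after it (returned minus growing, vertical axis), 1 point for each of 22180 genes, coloured by class. The dashed diagonal marks no change on return; the 2645 genes that had not come back lie between it and the horizontal axis or beyond it, and the 62 that had passed lie in the opposite quadrants.

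The 10 largest rises left were those of Cd59a, Itga3, Thbs1, Car5b, Cd34, Osmr, Folh1, Aldh1a1, S100a6 and Hacd4. Cd59a, which shields cells from complement, measured 3.63, 3.52, 4.31 and 4.11 in the growing arrays of mice 1 to 4, 9.42, 9.27, 9.67 and 8.95 in the withdrawn arrays and 8.56, 7.28, 8.68 and 8.41 in the returned arrays. It stayed 20.3-fold above growing (log2 difference 4.34, SE 0.29, limma adjusted p = 2.2e-06, n = 4 per group), with no overlap of the arrays. Itga3, an integrin chain that binds laminin, measured 4.16, 4.25, 4.10 and 4.01 in growing and 8.41, 8.31, 8.47 and 8.53 in returned cells, against a withdrawn mean of 8.54 ± 0.27 (SD). Its 19.7-fold difference (4.30, SE 0.12, adjusted p = 5.8e-09) was nearly all of what withdrawal had done, with 97.5% of the distance left.

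Thbs1 encodes thrombospondin, a matrix glycoprotein that activates TGF-beta. It measured 4.66, 4.53, 4.60 and 4.36 in growing, 10.23, 10.20, 10.52 and 10.65 in withdrawn and 8.89, 8.04, 9.17 and 9.24 in returned cells. The return lowered it (log2 difference from withdrawn -1.56, limma adjusted p = 0.00052) and left it 4.30 above growing (SE 0.22, adjusted p = 3.2e-07). Car5b, a mitochondrial carbonic anhydrase, stood at 4.67 ± 0.31 in growing, 8.41 ± 0.41 in withdrawn and 8.64 ± 0.43 in returned cells (SD), 15.7-fold above growing, and Hacd4, a dehydratase of fatty acid elongation, was 3.53 above. Aldh1a1, which makes retinoic acid, and Folh1, the glutamate carboxypeptidase of astrocytes, were not called between withdrawn and returned cells: their means were 8.33 ± 0.47 and 7.43 ± 0.71 in withdrawn and 8.63 ± 0.13 and 7.07 ± 0.89 in returned cells (SD, n = 4). Both stood far above growing, by 3.62 and 3.63. S100a6, a calcium-binding protein, was among the 83 that moved on: from 3.77 ± 0.34 in growing to 5.13 ± 0.13 in withdrawn and 7.32 ± 0.41 in returned cells.

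The lowest gene was Fbln2, which encodes the matrix protein fibulin 2. It measured 8.23, 8.25, 8.86 and 9.0 in growing, 4.55, 4.58, 4.76 and 4.86 in withdrawn and 4.67, 5.08, 5.14 and 5.40 in returned cells, an 11.4-fold lower level after the return (-3.51, SE 0.19, limma adjusted p = 4.7e-07). The next 9 were Slc6a11, Neto1, Bex2, Grm3, Egr1, Car8, Lrrn1, Nnat and Dlgap3. Slc6a11, a GABA transporter, measured 8.91, 8.88, 8.89 and 8.85 in growing and 5.83, 6.42, 5.58 and 5.18 in returned cells, with withdrawn arrays between 5.02 and 6.96. Neto1, an auxiliary subunit of kainate receptors, was lower by 2.53 (SE 0.29, adjusted p = 0.00014) and Grm3, a metabotropic glutamate receptor, by 2.15 (SE 0.15, adjusted p = 3.9e-06). For both, no returned array reached a growing one. Bex2, a small protein abundant in brain, Car8, a carbonic anhydrase relative, Lrrn1, a leucine-rich repeat membrane protein, and Dlgap3, a scaffold of the postsynaptic density, differed from growing by -2.28, -1.97, -1.95 and -1.87.

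**Figure D2:**
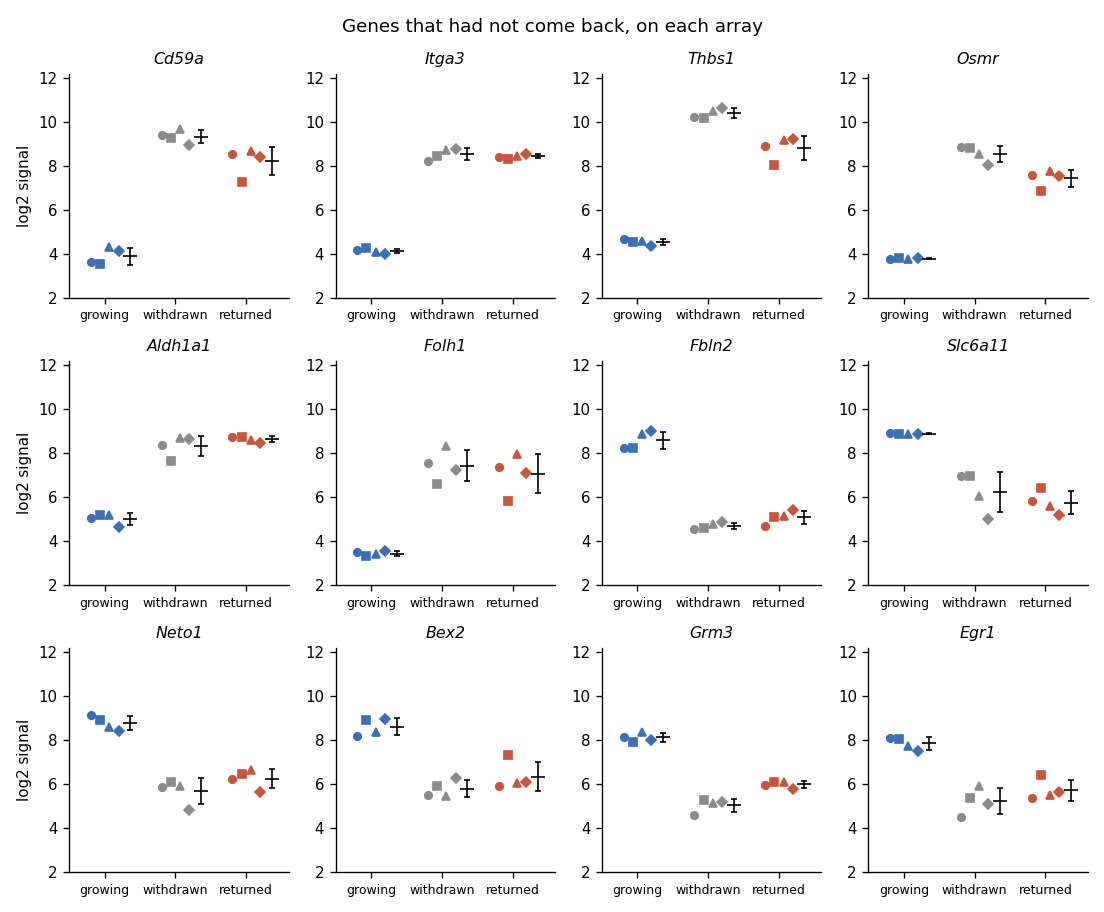
RMA log2 signal of 12 genes that had not come back, in the growing, withdrawn and returned arrays. Each point is 1 array, its shape the mouse, and black bars are the mean ± SD of 4 arrays; in all panels the returned arrays lie on the withdrawn side of the growing ones, with no overlap.

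Cell cycle genes rose on return and stopped short of the growing level. All 29 measured mitosis genes had fallen on withdrawal, with a median of -3.63, where 16.2% of all genes had. After the return 25 of 29 were still lower than in growing cells and 4 had come back within the test, with a median of -0.90 against -0.02 over all genes. DNA replication genes were alike, with 21 of 29 lower and a median of -0.74 after -2.30 on withdrawal. Mki67, the usual marker of cycling cells, measured 9.60, 9.34, 9.55 and 9.36 in growing, 4.68, 4.32, 4.98 and 4.16 in withdrawn and 8.55, 8.70, 8.14 and 8.09 in returned cells. It was thus 2.13-fold under growing (-1.09, SE 0.18, limma adjusted p = 0.0019) with 22.2% of the distance left. Plk1, the kinase of mitotic entry, Mcm3, of the replicative helicase, and Lig1, the DNA ligase of replication, were lower by 1.03, 0.91 and 1.03, and all 3 were called. Cdk1, the central mitotic kinase, measured 9.04, 8.47, 9.13 and 8.52 in growing and 8.44, 8.12, 8.31 and 7.32 in returned cells. It lay 0.74 under growing without a call (adjusted p = 0.31) and thus counts as come back. It was called with the pair of mice as a block (adjusted p = 0.037) and within mice 1 and 3 (adjusted p = 0.035).

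Genes that act before the cycle is entered were mixed. Ccnd1, the D-type cyclin that growth factors induce, measured 10.60, 10.47, 10.75 and 10.57 in growing, 7.87, 6.88, 9.09 and 8.41 in withdrawn and 11.07, 11.13, 11.29 and 11.20 in returned cells. All 4 returned arrays lay above all 4 growing ones. The difference of 0.58 was not called in the model with the scattered withdrawn arrays (limma adjusted p = 0.43) and was called with the returned and growing arrays alone (adjusted p = 0.003). Of 21 genes of G1 control, 6 were lower, among them the cell cycle inhibitor Cdkn2c (-0.80) and E2f2 (-0.94), a transcription factor of S phase entry, and only Cdkn2b, a CDK4 and CDK6 inhibitor, was higher (0.75). Without returned mouse 4 the count of lower genes was 2, and 3 without growing mouse 1, growing mouse 3 or returned mouse 3. Of ribosome biogenesis genes 12 of 29 were lower, with a median of -0.38, among them the nucleolar proteins Gnl3 (-0.66) and Nolc1 (-0.65). That count went to 7 without growing mouse 2, growing mouse 3 or returned mouse 1, and to 6 without growing mouse 4, returned mouse 3 or returned mouse 4. Respiratory chain genes gave 0 calls of 28 in limma and 3 at an unadjusted p under 0.05, where 13 had fallen on withdrawal.

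Many mitosis genes carry the CCAAT box, the site of the NF-Y factor, just before their start. The letters CCAAT or, on the other strand, ATTGG stood within the 250 bases upstream of the RefSeq start in 21 of 25 mitosis genes with a sequence (84.0%) and 16 of 25 DNA replication genes (64.0%), against 38.7% of 16990 genes. They stood in 6 of 25 ribosome biogenesis genes. They also stood in 12 of 19 astrocyte genes (63.2%) and 16 of 23 genes of amino acid and unfolded protein stress (69.6%). The share in DNA replication genes was thus not particular to cell cycle genes. The Mki67 window is shown because it holds 3 matches (GRCm38.p6, chr7:135716380-135716629, minus strand; 5′ to 3′, matches in capitals):
Mki67: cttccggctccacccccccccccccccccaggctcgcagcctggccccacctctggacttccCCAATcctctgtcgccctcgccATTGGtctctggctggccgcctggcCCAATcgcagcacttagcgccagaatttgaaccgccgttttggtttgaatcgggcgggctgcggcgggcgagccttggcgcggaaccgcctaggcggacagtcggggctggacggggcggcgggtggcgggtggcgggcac
A match describes the letters and says nothing of binding.

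Targets and brakes of the ERK pathway were back in part. Of 22, 14 had fallen on withdrawal (median -1.05) and 9 came back within the test, while 6 were higher (27.3%) and 3 lower (13.6%) than in growing cells, from -2.13 to 3.24. The count of lower genes was 2 without any 1 growing array, returned mouse 1, returned mouse 2 or returned mouse 4. Dusp6, the ERK phosphatase, measured 10.61, 10.51, 10.57 and 10.51 in growing, 7.57, 7.41, 8.96 and 8.53 in withdrawn and 10.60, 10.49, 10.59 and 10.69 in returned cells. Spry4, an inhibitor of receptor tyrosine kinase signalling, and the ETS factors Etv4 and Etv5 had fallen by 3.32, 2.25 and 2.94 and lay 0.41, 0.23 and 0.44 under growing, without a call. Spry1 and Etv1 came only part of the way, lower by 0.92 and 0.94 with limma adjusted p-values of 0.033 and 0.0036. Dusp4 and Spred3, also brakes of ERK, passed the growing level by 0.92 and 0.65.

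Immediate early genes were in part still low. Of 23, 10 were lower than in growing cells and 3 higher. Without returned mouse 1 the counts were 6 and 1, and the higher count was 1 without growing mouse 3, 2 without growing mouse 1, growing mouse 4 or returned mouse 2 and 6 with the mouse as a block. Egr1, induced within minutes by growth factors, measured 8.10, 8.07, 7.74 and 7.52 in growing and 5.36, 6.43, 5.49 and 5.64 in returned cells, 4.37-fold lower (-2.13, SE 0.29, limma adjusted p = 0.00051). Egr2, Egr3, Nr4a1 and Klf10 were lower by 1.03, 1.26, 1.38 and 1.45. Fos lay at 6.89, 6.04, 5.99 and 4.97 in growing and at 4.48, 4.75, 4.56 and 4.80 in returned cells, without a call on withdrawal. Jun, its AP-1 partner, was higher by 0.73 (adjusted p = 0.02).

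The receptor that takes up EGF had not come back. Egfr measured 9.69, 9.52, 9.71 and 9.52 in growing, 8.23, 8.27, 8.43 and 8.06 in withdrawn and 8.33, 8.56, 8.52 and 8.30 in returned cells, 2.27-fold under growing (-1.18, SE 0.10, limma adjusted p = 1.2e-05) with 86.5% of the distance left. Among ligands of that receptor Hbegf and Ereg were higher, and Egf (-0.27), Tgfa (-0.20) and Btc (0.06) were not called. Hbegf rose on withdrawal and again on return, from 7.64 ± 0.14 to 9.08 ± 0.39 and 9.76 ± 0.09 (SD), a final difference of 2.12 (adjusted p = 5.7e-06). Ereg, epiregulin, fell on withdrawal to 5.33 ± 0.51 and passed its growing level of 6.12 ± 0.11, reaching 7.32 ± 0.35. Fgf1 did the same, from 6.56 ± 0.23 through 5.83 ± 0.28 to 7.56 ± 0.30. Of the FGF receptors, Fgfr2 came part of the way down (1.47 above growing), the decoy Fgfrl1 stayed 1.02 above and Fgfr3 passed to 0.36 below. The Fgfr3 call was near the threshold (adjusted p = 0.044) and was lost with the returned and growing arrays alone (adjusted p = 0.072). In all, 8 of 23 genes of the EGF and FGF pathway were higher and 3 lower.

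Serum response and YAP targets stayed high. Of 28, 20 were higher and 0 lower, with a median of 1.47 after 1.71 on withdrawal. Only 1 of them came back within the test. Ccn1 and Ccn2, matricellular proteins and standard YAP readouts, measured 9.05 ± 0.40 and 8.76 ± 0.50 in returned against 6.53 ± 0.27 and 5.38 ± 0.15 in growing cells (SD, n = 4). Actn1, an actin crosslinker, went from 6.94 ± 0.16 to 9.68 ± 0.09 and 9.37 ± 0.19, with 88.7% of the distance left. Acta2 and Tagln, contractile genes of smooth muscle, were 6.24-fold and 3.95-fold above growing. Axl, a receptor tyrosine kinase, moved further away: 6.08, 6.13, 5.91 and 5.80 in growing, 7.61, 7.49, 8.11 and 7.51 in withdrawn and 9.09, 8.85, 8.75 and 8.33 in returned cells (2.78 above growing, SE 0.17, limma adjusted p = 1.2e-06).

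The letters GGAATG, the core of the site bound by TEAD, YAP's DNA-binding partner, or their reverse complement, which reads CATTCC, were found in 12 of 22 of these windows (54.5%), against 13.4% of 16990 genes. The list was made of known targets, so that this share does not stand apart from how the list was chosen. In the other lists the share ran from 0% (0 of 13 ependymal marker genes, for example) to 33.3% (4 of 12 fibroblast and meninges genes and 3 of 9 Schwann cell and neural crest genes). The windows of Ccn1, which kept its level on return, and Axl, which rose further, are given for comparison (GRCm38.p6, chr3:145649986-145650235 and chr7:25788734-25788983, both minus strand; 5′ to 3′, matches in capitals):
Ccn1: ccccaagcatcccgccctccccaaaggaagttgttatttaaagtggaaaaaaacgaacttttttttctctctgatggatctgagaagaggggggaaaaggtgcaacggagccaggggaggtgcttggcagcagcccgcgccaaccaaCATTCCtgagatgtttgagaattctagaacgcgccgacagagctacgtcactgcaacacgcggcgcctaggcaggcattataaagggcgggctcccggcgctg
Axl: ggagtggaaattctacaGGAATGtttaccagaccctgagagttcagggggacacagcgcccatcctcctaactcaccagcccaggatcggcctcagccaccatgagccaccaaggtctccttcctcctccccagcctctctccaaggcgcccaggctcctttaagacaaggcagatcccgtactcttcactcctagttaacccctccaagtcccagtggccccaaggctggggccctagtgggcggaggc
Each holds 1 match, nearer the gene's start in Ccn1 than in Axl.

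Matrix and adhesion genes were raised in part. Of 48 matrix glycoproteins and proteoglycans, 20 were higher and 6 lower, and 23 had not come back. Fn1, fibronectin, measured 7.48, 7.45, 7.38 and 7.12 in growing, 10.12, 10.09, 10.92 and 10.95 in withdrawn and 10.47, 10.45, 10.69 and 10.98 in returned cells, 9.79-fold above growing (3.29, SE 0.21, limma adjusted p = 1.3e-06). Of 28 collagens 9 were higher, among them Col8a1 (2.63), Col4a5 (1.11) and Col11a1 (1.08). Lox, which crosslinks collagen, was 2.66 above growing and varied among returned arrays from 5.31 to 7.48. Among 29 integrins and laminins 9 were higher and 4 lower: Itga7, a laminin receptor, was 2.86 above growing, Itgb5 was 1.23 above and Lama4, a laminin chain, was 1.29 below. Metalloproteinases and their inhibitors gave 11 higher of 28 (39.3%) and 4 lower (14.3%), where 7.86% and 7.43% of all genes were. The lower count was 2 without returned mouse 1 or returned mouse 3 and 1 without returned mouse 4. Timp1, the secreted inhibitor, was not called on withdrawal and rose on return alone, from 3.97, 3.96, 4.11 and 4.01 in growing to 5.99, 6.47, 6.94 and 6.19 in returned cells. Fibroblast and meninges genes did not move as a set, with a median of 0.03, 11 above growing and 9 below. The 1 called lower lay 1.18 below growing (limma adjusted p = 0.0005), and the largest called rises went the other way. Ogn, the matrix proteoglycan osteoglycin, measured 3.78, 3.82, 4.04 and 3.95 in growing, 9.16, 8.92, 9.45 and 9.13 in withdrawn and 7.35, 6.51, 7.92 and 7.81 in returned cells, 11.3-fold above growing, and Prrx1, a mesenchymal transcription factor, was 1.23 above. The fibroblast collagen Col1a2 (-0.06) and the proteoglycans Dcn (0.06) and Lum (0.09) were not called, and Dcn and Lum lay at 3.03 and 2.70 in returned cells, under the lower quartile of the arrays. The count of 5 higher was 3 without growing mouse 3, returned mouse 1, returned mouse 3 or returned mouse 4. The part of such cells in the matrix results was not tested.

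**Figure D3:**
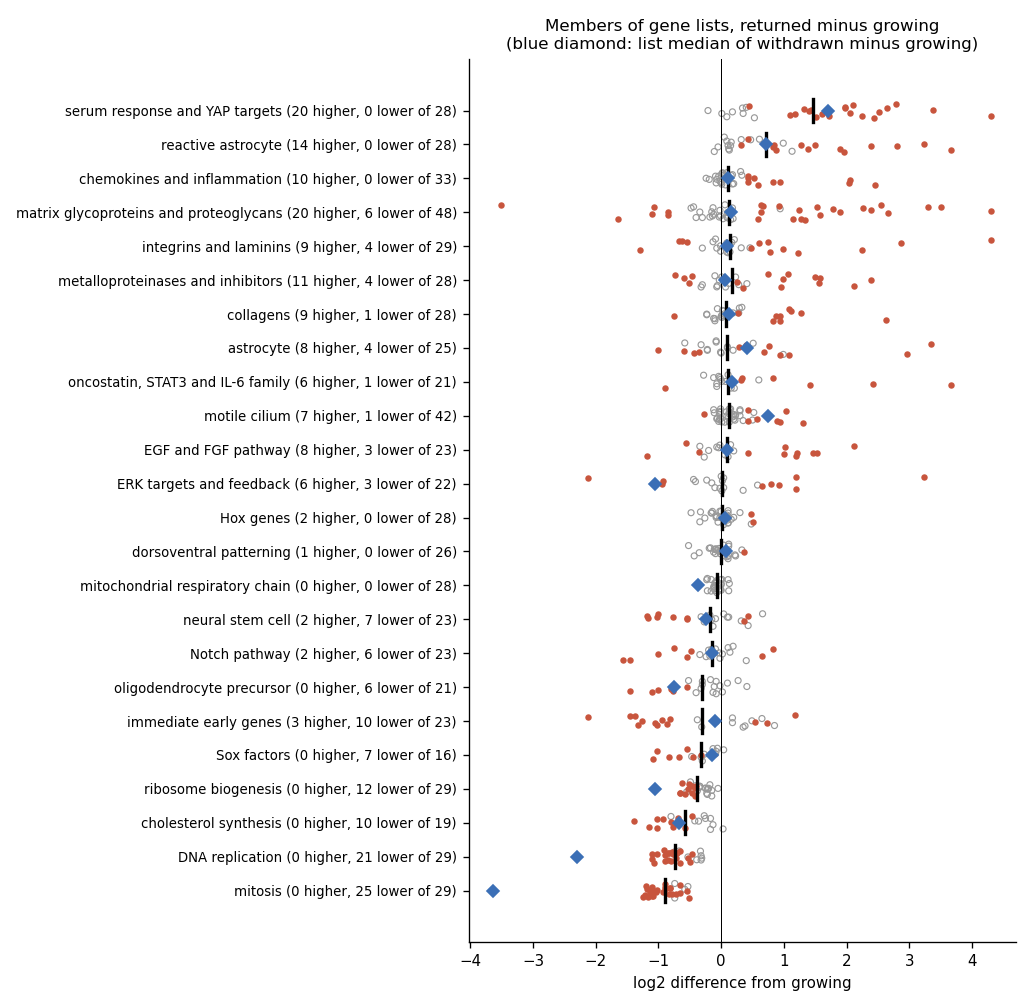
Log2 difference of returned minus growing for the measured members of 24 gene lists. Red points passed the test and open grey points did not, the black bar is the list's median and the blue diamond its median for withdrawn minus growing. Mitosis, DNA replication and ribosome biogenesis lie under 0 with no member above it. Serum response and YAP targets lie mostly above it, with 1 of 28 members below and a median of 1.47.

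Some counts of 0 held without the adjustment. At an unadjusted p under 0.05, mitosis, DNA replication, ribosome biogenesis, cholesterol synthesis, Sox and oligodendrocyte precursor genes still gave 0 higher, and reactive astrocyte genes 0 lower, in limma and in the Tukey comparison of linear values. Serum response and YAP targets then gave 1 lower in limma and 0 in the other, and chemokine genes 1 lower in both. Dorsoventral patterning and Hox genes, with 0 lower after adjustment, gave 3 lower each in limma.

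Osmr was among the 10 genes with the largest rise left. It measured 3.78, 3.81, 3.74 and 3.80 in growing, 8.84, 8.81, 8.53 and 8.04 in withdrawn and 7.57, 6.87, 7.77 and 7.55 in returned cells. The return lowered it by a call (-1.11, limma adjusted p = 0.0025), and it stayed 12.6-fold above growing (3.66, SE 0.20, adjusted p = 4.7e-07). Il6st, the gp130 chain that pairs with it, was part of the way back at 0.82 above. Lifr, which pairs with gp130 for the related ligand LIF, was 0.89 below growing with 99.5% of the distance left. Il6ra and the ligand Clcf1 moved further away, to 1.42 and 2.42 above. Of 21 genes of the family, 6 were higher and 1 lower.

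Astrocyte genes were called in both directions. Of 25, 8 were higher (32.0%) and 4 lower (16.0%), with a median of 0.10, and the lower count was 2 without growing mouse 1, growing mouse 2 or returned mouse 3. Gfap, the intermediate filament of mature and reactive astrocytes, measured 4.55, 4.27, 4.34 and 4.98 in growing, 9.29, 9.15, 8.12 and 7.84 in withdrawn and 5.67, 5.78, 5.69 and 4.98 in returned cells. Its difference of 0.99 from growing was not called (limma adjusted p = 0.074) and was called with the returned and growing arrays alone (adjusted p = 0.016). Aqp4, the water channel of astrocyte endfeet, and Clu, the secreted chaperone clusterin, stayed 2.97 and 3.35 above growing with 66.0% and 88.5% of the distance left. Of 28 genes of the reactive astrocyte list 14 were higher and 0 lower (median 0.72), including Timp1, Osmr and Emp1, a membrane protein that moved further away to 3.24 above. S100b, a calcium-binding protein of astrocytes, was higher after the return alone (1.08).

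Chemokine and inflammation genes were called mostly in returned cells alone. Of 33, 10 were higher and 0 lower, and 7 of the 10 had not been called on withdrawal. Ccl2, which draws monocytes, measured 4.53, 4.72, 4.95 and 4.75 in growing, 4.36, 4.06, 4.10 and 4.46 in withdrawn and 7.23, 6.70, 6.94 and 6.30 in returned cells (2.06 above growing, SE 0.18, limma adjusted p = 1.5e-05). Vcam1, an adhesion molecule, was higher by 0.94, and Plaur, the urokinase receptor, from the list of ERK targets, by 1.2. Csf1, the growth factor of microglia, and Il1r1, the interleukin-1 receptor, had risen on withdrawal and stayed 2.46 and 2.04 above growing. Of the microglia list 1 of 21 was called, Cd68 (0.52), with growing arrays between 4.48 and 4.82 and returned arrays between 4.93 and 5.36.

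Cholesterol synthesis genes were still low. Of 19 genes, 10 were lower and 0 higher, with a median of -0.58 after -0.67 on withdrawal. Lss, which closes the sterol ring, measured 7.05, 7.33, 6.93 and 7.28 in growing, 6.07, 6.10, 5.74 and 5.78 in withdrawn and 6.05, 5.87, 5.84 and 5.28 in returned cells (-1.39, SE 0.16, limma adjusted p = 0.00015). Fdps, of the isoprenoid steps, was lower by 1.15 and Hmgcs1, an early enzyme of the pathway, by 1.02. Abca1, which exports cholesterol, lay on the other side at 2.72 above growing. The CCAAT letters stood in 15 of 15 of these genes with a sequence, against 38.7% of all. The Lss window holds 1 match (GRCm38.p6, chr10:76531355-76531604, plus strand; 5′ to 3′, match in capitals):
Lss: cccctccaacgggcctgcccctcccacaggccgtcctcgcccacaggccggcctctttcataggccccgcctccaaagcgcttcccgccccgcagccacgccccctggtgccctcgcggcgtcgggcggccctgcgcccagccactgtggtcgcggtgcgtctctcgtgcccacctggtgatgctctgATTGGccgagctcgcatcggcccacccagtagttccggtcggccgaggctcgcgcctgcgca

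Motile cilium genes had mostly come down again. Withdrawal had raised 29 of 42 (12.1% of all genes rose), and after the return 7 were still higher, 18 had come back within the test and 1, Hydin, was lower. The list's median went from 0.75 to 0.13. Dnah6, a dynein arm chain, measured 3.56, 3.33, 3.57 and 3.53 in growing, 6.54, 6.71, 6.17 and 5.62 in withdrawn and 3.73, 3.61, 3.63 and 3.53 in returned cells. Rsph4a, of the radial spoke, did the same, 2.74 up on withdrawal and 0.20 from growing after the return (limma adjusted p = 0.69). Cfap44, an axonemal protein, came part of the way: 4.39, 4.61, 3.97 and 4.67 in growing, 7.72, 7.46, 7.71 and 7.37 in withdrawn and 5.53, 5.51, 5.81 and 6.03 in returned cells (1.31 above growing, SE 0.17, adjusted p = 0.00028).

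Their transcription factors behaved unlike each other. Foxj1, the master factor of motile cilia, measured 6.53, 6.69, 6.71 and 6.97 in growing, 8.46, 8.66, 8.71 and 8.10 in withdrawn and 7.59, 7.54, 7.62 and 7.90 in returned cells, 1.92-fold above growing (0.94, SE 0.14, limma adjusted p = 0.001). Rfx2 was 0.42 above and Rfx4 1.06 below growing, both called. Rfx1 (-0.18) and Trp73 (-0.20) were not called; Rfx3 (-0.38) was called with the returned and growing arrays alone (adjusted p = 0.026) and without withdrawn mouse 4 (adjusted p = 0.031). Myb, which acts in both cilium formation and proliferation, was lower by 1.07. The letters GTTGCC, part of the X-box that RFX factors bind, or their reverse complement, which reads GGCAAC, stood in 12 of 37 cilium windows (32.4%), against 11.8% of 16990 genes. In the other lists that share ran from 0% (0 of 15 oligodendrocyte precursor genes, for example) to 27.3% (3 of 11 connexin and aquaporin genes). None of the 3 strings searched contains another. The Cfap44 window holds 2 matches (GRCm38.p6, chr16:44394549-44394798, plus strand; 5′ to 3′, matches in capitals):
Cfap44: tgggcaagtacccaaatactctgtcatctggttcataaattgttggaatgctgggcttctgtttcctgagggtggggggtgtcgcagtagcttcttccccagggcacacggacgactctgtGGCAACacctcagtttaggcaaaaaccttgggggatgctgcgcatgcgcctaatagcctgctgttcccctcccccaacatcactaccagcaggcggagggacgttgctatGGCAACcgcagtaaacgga

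Some progenitor genes came back and others did not. Nes, the progenitor filament, Olig1 and Olig2, factors of the oligodendrocyte lineage, and Sox2 lay 0.04, 0.02, -0.17 and -0.09 from growing, without a call. Olig2, for example, measured 10.48, 10.70, 10.39 and 10.69 in growing, 8.09, 8.88, 8.18 and 8.57 in withdrawn and 10.20, 10.69, 10.07 and 10.62 in returned cells. In contrast, 7 of 16 Sox factors were lower and 0 higher, among them Sox11 (-1.09), Sox3 (-1.02) and Sox6 (-0.55). Of 21 genes of oligodendrocyte precursors 6 were lower and 0 higher, with Lhfpl3 at -1.45, Cspg4, the NG2 proteoglycan, at -1.10 and Cacng4, an AMPA receptor subunit, at -1.01. Pdgfra and Mbp were not called (0.41 and 0.03).

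Of 23 Notch pathway genes 6 were lower (26.1%) and 2 higher (8.70%), and of 31 Wnt pathway genes 6 were lower (19.4%) and 2 higher (6.45%), where 7.43% of all genes were lower and 7.86% higher. The higher Wnt count was 1 without returned mouse 3 or returned mouse 4, and 3 without withdrawn mouse 2. Dll1 and Dll3, of the Delta family of Notch ligands, were lower by 1.57 and 1.45. Hes5, a target of the pathway, was lower by 1.00, while Notch2 was 0.82 above growing. Whether these falls are linked was not tested. Wnt7a, a Wnt ligand, moved further down to 1.24 below, and Fzd7, a Wnt receptor, further up to 1.62 above. Id4 and Prom1 had been raised by 3.59 and 3.28 on withdrawal and lay 0.51 and 0.66 above growing after the return, without a call. Prom1 was called with the mouse as a block (adjusted p = 0.0034), and Id4 without growing mouse 4 (adjusted p = 0.045) or returned mouse 2 (adjusted p = 0.021). Neuronal genes gave 7 lower of 29 (24.1%) and 2 higher (6.90%), the latter near the share over all genes. Those 2 were Stmn2, a microtubule regulator of growing axons, and Nefl, a neurofilament chain, both called in returned cells alone. Their returned arrays varied widely, from 5.32 to 7.62 for Stmn2 and from 3.53 to 6.35 for Nefl, whose call was lost with the returned and growing arrays alone (limma adjusted p = 0.098). Tubb3 was not called (0.01).

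Ion channels, glutamate handling and guidance cues held large differences in both directions. Of 34 channel and glutamate genes 6 were higher and 11 lower. Gabrb1, a GABA-A receptor subunit, was 2.76 above growing with 104% of the distance left, and Grm5, a metabotropic glutamate receptor, recovered from -4.02 to -1.53. Of 37 guidance genes 6 were higher and 10 lower. Sema3c and Sema3e, secreted semaphorins, were 2.43 and 2.68 above growing, Dcc, the netrin receptor, was 1.81 below and Slit2 had come back within the test (0.61, limma adjusted p = 0.27, and 0.012 with the mouse as a block). Dorsoventral patterning and Hox genes, which record position in the cord, gave 1 call of 26 (3.85%) and 2 of 28 (7.14%), under the 15.3% of all genes. These were Gli3, Hoxb6 and Hoxc8, all higher. With the returned and growing arrays alone Hoxb6 and Hoxc8 lost their calls (limma adjusted p = 0.075 and 0.058) and 1 Hox gene was lower, and with the mouse as a block 3 dorsoventral genes were lower.

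**Figure D4:**
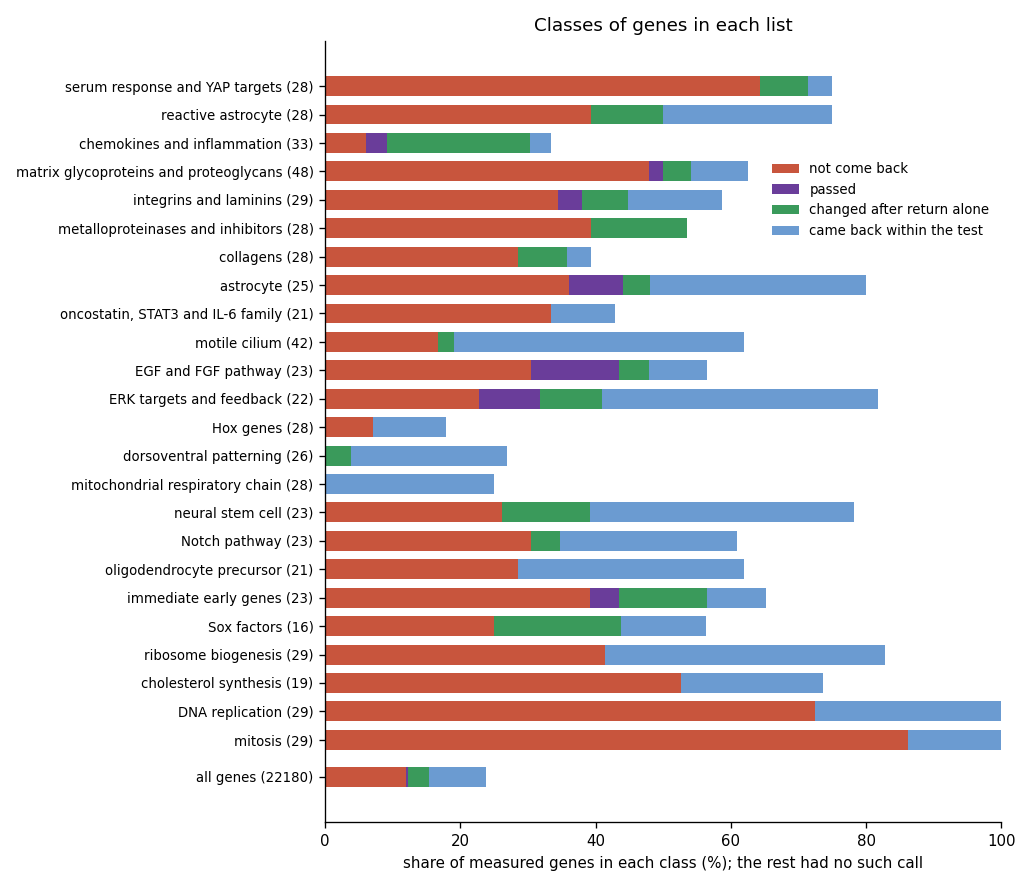
Share of each list's measured members, and of all genes, that had not come back, had passed the growing level, differed after the return alone or had come back within the test. Mitosis genes had not come back in 25 of 29 cases and motile cilium genes in 7 of 42, against 2645 of 22180 genes.

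Of the 62 genes that had passed, 50 lay above growing and 12 below. Ltbp1, which stores latent TGF-beta in the matrix, measured 5.08, 5.38, 5.26 and 5.26 in growing, 4.68, 4.70, 4.76 and 5.13 in withdrawn and 7.53, 7.67, 7.80 and 7.54 in returned cells (2.39 above growing, SE 0.11, limma adjusted p = 1.8e-07). Lgals1, galectin 1, went from 9.74 ± 0.14 to 9.09 ± 0.35 and 11.20 ± 0.12 (SD), and Kitl, the ligand of KIT, from 8.05 ± 0.39 to 6.98 ± 0.46 and 9.40 ± 0.40. Pde2a, a cyclic nucleotide phosphodiesterase, and Itga5, the fibronectin receptor chain, passed by 1.31 and 0.78. Downward, Camk2a, a calmodulin-dependent kinase, lay furthest at 1.12 below growing, after 0.68 above it on withdrawal. Nr4a3, a nuclear receptor of the early response, and Nfia, a factor of gliogenesis, passed by -0.86 and -0.44, and Peli2, Fat3 and Jade1 by -0.87, -0.68 and -0.54. The count of 62 went to 39 without growing mouse 2 and 41 without growing mouse 3, and to 103 with the mouse as a block.

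Among the 684 genes that differed after the return alone, 458 were higher and 226 lower. Cd34, a sialomucin of progenitor and vascular cells, measured 4.37, 4.56, 4.41 and 4.23 in growing, 5.22, 4.72, 6.02 and 4.68 in withdrawn and 8.44, 7.75, 8.43 and 7.72 in returned cells (3.69 above growing, SE 0.27, limma adjusted p = 4.9e-06). Its rise on withdrawal missed the threshold (0.77, adjusted p = 0.069). Ifi202b, an interferon-inducible DNA sensor, stood at 3.13 ± 0.11 in growing, 3.24 ± 0.06 in withdrawn and 6.37 ± 0.31 in returned cells, and 5 of 28 genes of the interferon list were higher (17.9%, against 7.86% of all genes). Emp3, Ociad2 and Rgs16, the last a brake of G protein signalling, were 2.74, 2.87 and 2.81 above growing. Nnat, neuronatin, and Nkd1, a Wnt antagonist, were lower by 1.89 and 1.52, Prrg3 by 1.52, Draxin, a guidance protein, by 1.43 and Erich3 by 1.42. Without returned mouse 3 the count of 684 went to 443.

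**Figure D5:**
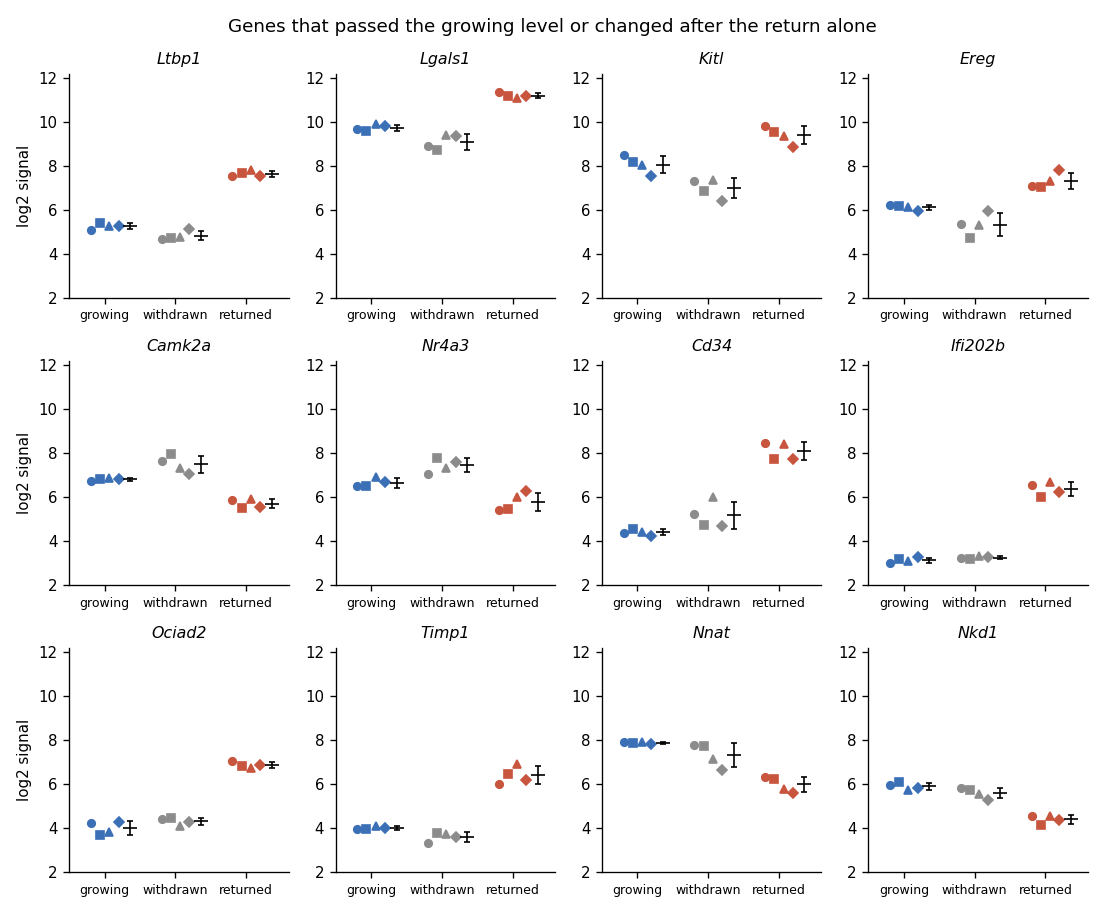
RMA log2 signal of 12 genes that had passed the growing level or differed from it after the return alone, drawn as points for the arrays of mice 1 to 4 with black bars for the mean ± SD. The returned arrays of Ltbp1, Cd34 and Ifi202b lie above every growing and withdrawn array, those of Camk2a below.

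Mice 1 and 3 stood apart from mice 2 and 4 for 465 of 22180 genes, whose 6 arrays of each pair did not overlap. Of these, 0 were called between returned and growing cells. Both groups held arrays of both pairs, so genes chosen this way spread widely within each group. Their selection thus made a call unlikely, and the 0 says nothing of the other calls. This split was chosen after seeing the data, and how many genes another split would give was not tested. Medians of the lists were close in both pairs, -0.92 and -0.91 for mitosis and 1.43 and 1.51 for serum response and YAP targets. With 2 mice a group, however, mice 2 and 4 gave 226 calls against 2398 for mice 1 and 3, and of the mitosis genes 0 against 24.

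Some calls near the threshold did not hold with 1 array fewer. Nefl lost its call without any 1 withdrawn array, with its difference still 1.48 (limma adjusted p = 0.053 to 0.058). Such losses therefore do not show that a call rested on 1 array. Of the 156 genes named, 14 lost their call when some array was left out, with limma adjusted p-values of 0.05 to 0.13: Nefl for 10 of the 12 arrays, Fgfr3 for 9, Spry1 for 7, Hoxb6 for 6, Cd68, Gli3 and Hoxc8 for 5 each, Hydin and Jun for 4, and Draxin, Nfia, Nr4a3, Rfx2 and Spred3 for 3. Quantile normalisation took away those of Fgfr3, Hoxb6, Rfx2 and Spry1.

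Some named genes were read by another, dimmer probe set that did not pass the test. The difference of the dimmer probe set was 0.18 for Ccn2, 1.28 for Emp1, 0.08 for Ereg, -0.12 for Hes5, -0.03 for Dll1, -0.49 for Nnat, 0.00 for Myb, -0.14 for Hydin and -0.41 for Erich3. Dusp6, Etv5 and Col1a2 were called by neither probe set, and the dimmer ones gave -0.48, -0.45 and 0.07. Etv1 was called by its dimmer probe set too (-0.75).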

How the data were processed

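Total RNA of 12 neurosphere cultures (3 conditions, 4 mice) was hybridised to Affymetrix mouse gene arrays. The authors deposited log2 signals normalised with RMA, made, according to the submitters' notes, in version 1.2.1 of the Affymetrix Expression Console. Those values were used as deposited; their number, 4 arrays a group, limits the precision. Gene names came from the platform annotation kept with the series: of 41155 probe sets left after removing 190 control probe sets, 23521 named 1 gene, 1820 several and 15814 none, and the latter 2 kinds were not named. A gene was read by the probe set with the highest mean over the 12 arrays (22180 genes, of which 1082 had more than 1). The table of the other array platform (ependymal tissue) was not used here.

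The 3 groups were fitted together in limma 3.58.1 (R 4.3.3) without a block, with Benjamini-Hochberg adjustment over all 41155 probe sets and a threshold of 0.05. The scripts were tested on simulated data. Titles number the mice 1 to 4 in each condition, so the arrays pair by animal; deviations from the group means correlated for the same mouse at 0.16 to 0.391 in the 3 pairs of groups, above those with any other mouse except for mouse 3 between growing and returned cells (0.16, against 0.356 with another mouse). The alternatives were the mouse as a block, each array left out, only the 2 groups compared, other scalings, filters and variance priors, and the one-way test with Tukey comparison. Those within mice 1 and 3, within mice 2 and 4 and with the pair of mice as a block were added after seeing the data.

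The comparison, the 44 gene lists and the tests were chosen with earlier results of these data known. Genes were named by rule: the 10 largest differences in each direction among called genes with no overlap of the arrays, the 5 largest in each direction among those that had passed and among those that differed after the return alone, from every list the 3 called members with the lowest p or fewer, and 20 genes always shown. Named after their values were seen were Ccn1, Ccn2, Fn1, Lox, Il6st, Lifr, Fgf1, Fgfr2, Dll1, Nefl, Dusp6, Spry1, Spry4, Etv1, Etv4, Fos, Nr4a1, Jun, S100b, Id4, Dnah6, Rsph4a, Plk1, Mcm3, Lama4, Cspg4, Slit2, Prom1, Hydin, Nfia, Itga5, Vcam1, Spred3, Cdk1, Egf, Tgfa, Btc, Dcn, Lum and Col1a2. The division of genes that had not come back, the promoter letters and the examples shown were also chosen after values were seen. In all, 199 genes were picked by rule or after their values were seen. Of these, 156 are named here, and some of the 44 lists are not described. Promoter sequences were those of RefSeq on GRCm38.p6, 250 bases before the start, matched by symbol for 16990 of 22180 genes. The labels give passage 1 and 3 days of withdrawal, where the study's methods state a later passage and a longer time. The study's account of its results also gives 3 days. The labels were followed.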

Additional observations from a re-analysis of the deposited data

Results flagged for a closer look

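Of 468 groups of 4 arrays behind the genes named, 24 held an array far from the other 3, where chance alone would single out about 5%. In returned cells mouse 2 stood apart for 6 genes. It was low for Ccn2 (8.02, the others 8.93 to 9.08), Hbegf (9.63, the others 9.79 to 9.81), Hoxc8 (6.34, the others 6.64 to 6.69) and Il1r1 (6.11, the others 6.91 to 7.0), and high for Gnl3 (7.85, the others 7.36 to 7.43) and Bex2 (7.32, the others 5.9 to 6.08). Returned mouse 4 was low for Gfap (4.98, the others 5.67 to 5.78) and returned mouse 1 was low for Pde2a (7.35, the others 7.78 to 7.81) and high for Col1a2 (4.59, the others 4.2 to 4.21).

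In growing cells, mouse 1 was high for Fat3 (6.70, the others 6.38 to 6.43), mouse 2 was high for Cd68 (4.82, the others 4.48 to 4.5) and low for Dnah6 (3.33, the others 3.53 to 3.57), mouse 3 was low for Cacng4 (7.54, the others 7.84 to 7.90) and mouse 4 was high for Plaur (4.49, the others 4.16 to 4.19).

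In withdrawn cells, mouse 4 was high for Fgfr2 (8.80) and Pde2a (5.43) and low for Fgfrl1 (8.58) and Vcam1 (6.31). Mouse 2 was high for Nfia (9.96), Rfx4 (8.83) and, at a low level, Dcn (3.17), and low for Nefl (3.12), and mouse 3 was high for Mcm3 (4.77) and low for Fgfr3 (7.52).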

How the results depend on the processing

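In the limma fits of returned against growing, no call kept by both the main model and an alternative changed direction. Blocks, other variance priors, the 2 groups alone and fits without a withdrawn array leave this difference unchanged. Its sign could not change there, and the remaining fits share arrays with the main model. With the mouse as a block, 4311 genes were called, of which 3333 were shared with the main model (98.3% of its calls), and the genes that had passed rose to 103; among the genes named it gained Prom1 and Slit2 and lost none, and it changed no other call. Leaving out each array in turn gave 1354 to 1862 genes higher and 1186 to 1817 lower than growing (528 to 646 and 188 to 287 with the study's thresholds), 2398 to 2751 and 3180 to 3525 for withdrawn against growing, and 1893 to 2185 and 1100 to 1553 for returned against withdrawn. Genes not come back then numbered 2064 to 2774, passed 39 to 72, changed after the return alone 443 to 833 and come back 1413 to 1920. Within mice 1 and 3, 1399 genes were higher than withdrawn, 26 had passed and 429 differed after the return alone. Within mice 2 and 4, 188 genes were higher and 38 lower than growing (83.2% of the calls higher), 1169 and 1924 for withdrawn against growing, 613 and 249 for returned against withdrawn, with 180 not come back, 0 passed, 46 after the return alone and 700 come back; fewer arrays entered these fits. The Tukey comparison of linear values gave 2571 genes lower at an unadjusted p under 0.05, and 845 higher after Benjamini-Hochberg. The causes of these shifts, the smaller number of arrays among them, were not tested. With 4 arrays a group, Ccnd1, whose withdrawn arrays scatter, had a wider error in the 3-group model than with the returned and growing arrays alone.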
